A study of Mus musculus with 89 samples.

Results

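Lung gene expression was compared between mice given 40 μg of carboxyl-coated copper oxide nanoparticles (CuO COOH) a day and mice given none. Both groups were challenged with phosphate-buffered saline (PBS), and the samples were chosen by their labels alone. There were 3 exposed samples (CuO COOH 40) and 7 PBS controls among the 89 samples and 26 groups of the series. The whole series tested copper oxide nanomaterials, uncoated or with other surface groups, at several doses in mice that were challenged with PBS or with ovalbumin (OVA). RNA of lung tissue was hybridised to Agilent mouse arrays, which read 1 sample per dye, Cy3 or Cy5. The tissue was part of the left lobe, taken after the lungs had been lavaged, so cells washed out were not measured here.

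All mice were BALB/c females of 6 to 8 weeks. Every mouse, the PBS controls included, had been sensitised to ovalbumin with the adjuvant alum on days 1 and 10, so the controls were not untreated animals. The nanoparticles were given by oropharyngeal aspiration on 4 consecutive days and lungs were taken 24 h after the last dose. The CuO COOH 40 mice and the PBS controls received saline as challenge and so did not meet the allergen again. RNA was pooled by 2 for each hybridised sample, with RNA integrity numbers above 8, and the labels do not tie a pool to named animals, so p-values measure the spread between pools. The doses are in mg in the treatment field of the labels but in μg in another field and in the study's methods, and μg is used here. The dose is the mass of coated material, so a dose of CuO COOH held less copper than the same mass of uncoated CuO. There was 1 time point, and in lung tissue fewer cells of a type and less RNA per cell cannot be told apart.

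Copper oxide particles release copper ions in the lung lining fluid and inside cells. Free copper ions are bound by metallothioneins, whose genes are switched on by the metal-sensing factor MTF1, and copper that enters redox reactions engages the antioxidant response driven by NRF2. Injured lung is known to call in blood monocytes through CC chemokines, to make acute phase proteins locally and to repair itself by cell division and matrix deposition.

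Signals were log2 intensities (median foreground, quantile-normalised over all samples), averaged over the probes of a gene for 22911 genes. Per-sample values are log2 intensities with dye, slide and array position removed. Fold changes and standard errors (SE) come from limma with dye and array as terms, and a gene was called when its Benjamini-Hochberg adjusted p was below 0.05 and its log2 fold change beyond 0.58 in size. A second fit replaced the 46 arrays by dye, slide and position on the slide, and is named the slide fit. The share of probes well above background was 63.0% to 67.8% in the exposed samples and 53.3% to 68.4% in the controls. No member spot was saturated. The number of samples limits the precision, and the median SE of a log2 fold change was 0.19.

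CuO COOH 40 changed 2368 of the 22911 genes (10.3%). Of these, 1388 were higher than in the controls (6.06% of all genes) and 980 were lower (4.28%). On the log2 scale 148 called genes rose by more than 2 and 32 fell by more than 2. Among genes that rose most were Spp1, Saa3, Timp1, Orm1, Retnlb, Saa1, Hmox1, Orm2, Ccl7 and Ccl2. The genes that fell most were Hbb-bt, Alas2, Hbb-b1, Hbb-b2, Colq, Igfbp3, Cidec, Scgb3a2, Hba-a1 and Fabp1. The 3 exposed samples lay apart from all 7 controls for 2258 of the called genes, and the same held for 35.5% of all genes whether called or not. Within each of the 3 slides that held an exposed sample and a control, 1360 of the 1388 genes were higher and 964 of the 980 were lower. The same samples gave the calls, so these counts follow in part from the selection, and the share over all genes was not counted. On slide 3 the exposed sample was Cy3 and the control Cy5.

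The slide fit called 2132 genes, of which 1648 were also called by the array fit. Of the 2368 genes 2364 had the same sign in both, but their changes were smaller in the slide fit, with a median size of 0.73 against 0.91. Of single samples, PBS sample 1 and CuO COOH 40 sample 1, both Cy5 samples on slide 1, moved the calls of the array fit most. It called 1021 genes without the former and 1338 without the latter. The slide fit called 2064 and 2061 genes when the same samples were left out. No control shared an array with an exposed sample, so the array fit compared them through other groups. PBS sample 1 shared its array with a sample given 2.5 μg of CuO COOH under OVA. Samples of that group also shared arrays with CuO COOH 40 samples 2 and 3, and no other control shared an array with that group. The cause of the shifts in calls was not tested. Counts given below as without the slide 1 samples are those of the array fit without PBS sample 1 and then without CuO COOH 40 sample 1.

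**Figure D1:**
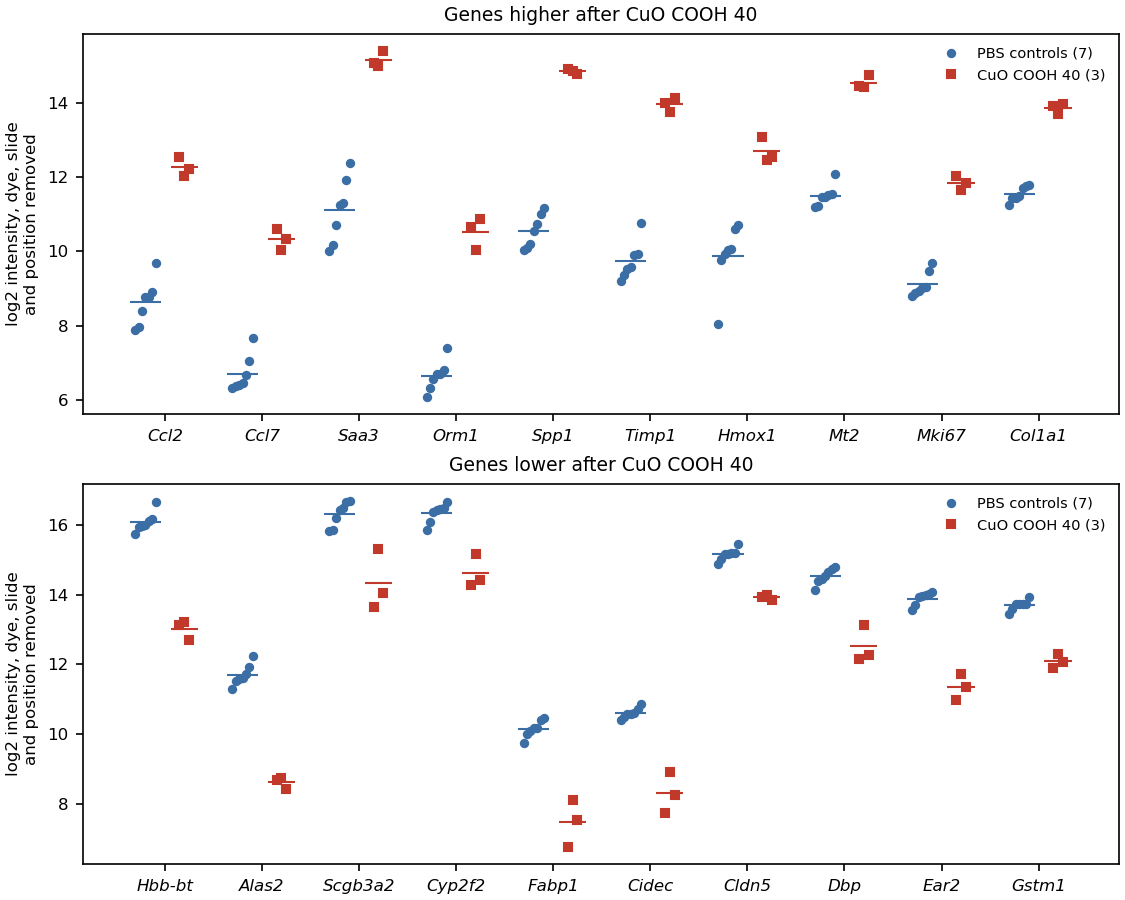
Log2 intensity of 10 genes that were higher and 10 that were lower after CuO COOH 40, in each of the 7 PBS controls (circles) and 3 exposed samples (squares), with dye, slide and position removed and with bars at the group means. For each of the 20 genes the exposed samples lie on 1 side of all controls, for example Spp1 at 14.77 to 14.92 against 10.03 to 11.18.

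The chemokines that recruit monocytes rose together. Of 10 measured ligands and receptors of this group 8 rose, where 6.06% of all genes did, and none fell, with a median log2 fold change of 2.46 where that of all genes was -0.00. Ccl2, the main ligand of the monocyte receptor CCR2, had log2 intensities of 12.54, 12.02 and 12.23 in the exposed samples. The controls spanned 7.87, 8.77 and 9.68 (lowest, median and highest). All 3 exposed samples stood above every control, and the fold change was 4.66 (SE 0.64, adjusted p = 2.31e-05), or 3.64 in the slide fit. Ccl7, another CCR2 ligand, read 10.60, 10.03 and 10.34 in the exposed samples against 6.32, 6.46 and 7.67 in the controls, 6 of which were well above background. Its log2 fold change was 4.75 (SE 0.65, adjusted p = 2.07e-05) and the groups did not overlap. Ccl12, also a ligand of that receptor, rose by 2.98 on the log2 scale. The slide fit called 8 of the group, and the array fit called 8 without PBS sample 1 and 6 without CuO COOH 40 sample 1.

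Neutrophil-directed chemokines rose less evenly. Of 9 genes 4 rose, led by Cxcl5 (log2 fold change 3.26, SE 0.66, adjusted p = 0.00161) and Cxcl1 (2.85, SE 0.52, adjusted p = 0.000583), both ligands of the neutrophil receptor CXCR2. Cxcl5 was well above background in 4 of the 7 controls, and without CuO COOH 40 sample 1 its change was 2.58 (adjusted p = 0.0556). Cxcl3, of the same family, rose by 1.62, but its samples overlapped the controls, of which 1 was well above background, and it was called under 7 of 22 alternatives. The array fit called 1 of the group without CuO COOH 40 sample 1 and the slide fit then called 3. Markers of neutrophils themselves were mixed. Lcn2 (3.30), the iron-binding lipocalin, Ltf (2.67), lactoferrin, and Clec4d (2.54), a myeloid lectin receptor, were among 6 of 21 that rose, and Lcn2 and Ltf are also made by other cells. S100a8, one of the most abundant neutrophil transcripts, differed by 0.64 (SE 0.67, adjusted p = 0.667) and was not called. Its value was 3.49 (adjusted p = 0.0687) without PBS sample 1, which stood apart from the other controls, and -0.61 (adjusted p = 0.707) without CuO COOH 40 sample 1. In the array fit the call of Ltf rested on PBS sample 1, without which its change was 2.30 (adjusted p = 0.405). The slide fit without that sample called Ltf at 2.52 (adjusted p = 2.47e-05).

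Of the remaining chemokines 5 of 16 rose and 2 fell. The interferon-inducible Cxcl10 had a log2 fold change of 3.43 (SE 0.92, adjusted p = 0.0144), and Cxcl13, which attracts B cells, one of 2.16. Ccl17 (1.46) and Ccl20 (1.33) rose as well, and Ccl5, made largely by T and NK cells, fell by 1.45. The array fit lost all 5 rises without CuO COOH 40 sample 1 (Cxcl10 at 2.57 with adjusted p = 0.192, Cxcl13 at 1.93 with adjusted p = 0.103, Ccl17 at 1.27 with adjusted p = 0.153, Ccl20 at 1.46 with adjusted p = 0.0711). It lost the same 4 without PBS sample 1 (Cxcl10 at 5.4 with adjusted p = 0.0759, Cxcl13 at 2.67 with adjusted p = 0.174, Ccl17 at 1.90 with adjusted p = 0.194, Ccl20 at 1.04 with adjusted p = 0.539), and the slide fit without these samples called all 4. The adjusted p of Ccl5 reached 0.58 over the alternatives. Apart from Cxcl10, which stood on both lists, none of the 17 interferon response genes passed the test, and Ifit1, a defining member, was at 0.77 (SE 0.67, adjusted p = 0.577).

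Cytokine genes moved in part. Il33, an epithelial alarmin that drives type 2 immunity, had log2 intensities of 10.59, 10.45 and 10.41 in the exposed samples and 8.74, 9.01 and 9.26 in the controls. These did not overlap, and the log2 fold change was 1.72 (SE 0.28, adjusted p = 0.000144). Il6 rose by 1.89, with 2 of 7 controls well above background, and Il11, a cytokine of the same receptor family, by 1.44. Without CuO COOH 40 sample 1 the change of Il6 was 1.33 (adjusted p = 0.062), and without PBS sample 1 that of Il11 was 1.39 (adjusted p = 0.0991). Tnf, the tumour necrosis factor gene, read 7.21, 6.93 and 7.33 against 6.45, 6.53 and 6.69 in the controls. Although these groups did not overlap, the change of 0.96 did not pass in the array fit (adjusted p = 0.0774), whereas the slide fit called it at 0.60 (adjusted p = 0.0132). In all, 4 of 14 cytokine genes rose and 1 fell, with 3 and 2 rises without the slide 1 samples. Of 14 genes induced by NF-kB 3 rose, led by Bcl3 (1.19, or 1.49, adjusted p = 0.0708 without PBS sample 1), while Nfkbia, its inhibitor and a sensitive early target, was at -0.28 (adjusted p = 0.617). The calls of this list numbered 0 and 1 without the slide 1 samples and 2 in the slide fit. Socs3, the feedback inhibitor of STAT3 signalling, rose by 1.21, and 2 of 11 STAT3 targets rose in all and 1 fell. Without either slide 1 sample 1 of them rose, and likewise 1 in the slide fit.

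Acute phase genes formed one of the broadest rises. Of 21 measured genes 17 rose and none fell, and the median was 1.45 (1.23 in the slide fit). Saa3, the serum amyloid A gene expressed by lung epithelium and macrophages, read 15.07, 14.98 and 15.39 in the exposed samples. Its controls spanned 10.01, 11.25 and 12.39, and the log2 fold change was 5.52 (SE 0.82, adjusted p = 6.27e-05). Saa1 read 12.34, 12.06 and 12.63 against 8.13, 8.45 and 9.36 and had a fold change of 5.05 (SE 0.63, adjusted p = 6.68e-06). Both genes stood above all controls in all 3 exposed samples. Orm1, which encodes the plasma protein orosomucoid, was near background in the controls at 6.09, 6.71 and 7.39 and reached 10.65, 10.03 and 10.88, a change of 5.35 (SE 0.68, adjusted p = 8.41e-06). Orm2 rose by 4.8. Since Saa1 and Saa2, and the Orm genes among themselves, are near-identical, their probes may share signal and the split between copies is uncertain. Without 1 sample of slide 1 the array fit called 11 and 9 of the 21 genes (PBS sample 1 and CuO COOH 40 sample 1), and the slide fit 16 and 16. Complement genes were called in 6 of 13 cases, among them the receptors C3ar1 (2.14) and C5ar1 (1.5) and factor B, Cfb (1.72), but in 1 and 2 without those samples. In the array fit PBS sample 1 decided the calls of C3ar1 (2.13, adjusted p = 0.121 without it) and Cfb (2.02, adjusted p = 0.219). CuO COOH 40 sample 1 decided there the calls of C5ar1 (0.83, adjusted p = 0.133 without it) and Cfb (1.58, adjusted p = 0.102). The slide fit without them called 7 and 7 of the list.

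Matrix and repair genes included some of the largest changes. Spp1, which encodes the secreted phosphoprotein osteopontin, read 14.92, 14.86 and 14.77 in the exposed samples and 10.03, 10.54 and 11.18 in the controls. It was 46.8-fold higher (log2 fold change 5.55, SE 0.34, adjusted p = 8.76e-10), and 19.9-fold in the slide fit. Timp1, an inhibitor of matrix metalloproteinases, read 14.00, 13.74 and 14.13 against 9.20, 9.57 and 10.76 and rose by 5.48 (SE 0.59, adjusted p = 1.07e-06). For both genes the lowest exposed sample was far above the highest control. Tnc, the wound-matrix glycoprotein tenascin C, rose by 3.07 (SE 0.27, adjusted p = 8.75e-08). Together 12 of 20 remodelling genes rose and none fell, with 6 and 10 rises without the slide 1 samples and 11 in the slide fit.

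Fibrillar collagen genes and their cross-linking enzymes rose in part. Col1a1, the major chain of type I collagen, read 13.91, 13.70 and 13.97 in the exposed samples and 11.24, 11.49 and 11.78 in the controls, without overlap, and its log2 fold change was 2.38 (SE 0.34, adjusted p = 3.22e-05). Lox, the lysyl oxidase that cross-links collagen and elastin and needs copper as a cofactor, rose by 2.2, Eln, elastin, by 2.13 and Col3a1, type III collagen, by 2.06. Of 15 genes 9 rose and none fell, in the slide fit likewise 9. The array fit without PBS sample 1 called 2, with Col1a1 at 2.03 (adjusted p = 0.077) and Eln at 1.67 (adjusted p = 0.254). Few markers of fibroblasts other than collagens were called in the array fit. Of 15 fibroblast genes 3 rose, all of them collagens, and 2 fell, with 1 and 3 rises without the slide 1 samples. Acta2, the contractile actin of smooth muscle and myofibroblasts, differed by 0.49 (adjusted p = 0.0813), and none of 10 smooth muscle genes was called. Among coagulation genes 8 of 14 rose, including F10 (1.61), clotting factor X, and Pf4 (1.48), platelet factor 4. Thbd, the endothelial anticoagulant thrombomodulin, fell by 1.56. The rises numbered 5 and 4 without the slide 1 samples and 7 in the slide fit. Without CuO COOH 40 sample 1 the calls of F10 and Pf4 were lost (F10 at 1.21 with adjusted p = 0.0676, Pf4 at 0.86 with adjusted p = 0.217), and without PBS sample 1 that of Thbd (Thbd at -1.53 with adjusted p = 0.248). Among 9 platelet genes Pf4 alone was called.

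Genes of cell division rose as a block. All 30 measured genes of mitosis and all 26 of DNA replication were called higher, and no other list had all its members called. The lists were chosen with earlier results of these data known, which may have raised such counts. Mki67, the proliferation antigen Ki-67, read 12.03, 11.64 and 11.84 in the exposed samples against 8.79, 9.02 and 9.68 in the controls, a log2 fold change of 2.95 (SE 0.22, adjusted p = 1.15e-08). Ube2c, the ubiquitin-conjugating enzyme of the anaphase-promoting complex, read 10.36, 10.16 and 10.47 against 7.23, 7.56 and 8.04 and changed by 3.08 (SE 0.31, adjusted p = 3.18e-07). In both cases every exposed sample was above every control by more than 1.5 on the log2 scale. Ccna2, cyclin A, rose by 3.14 and Birc5, the chromosomal passenger survivin, by 3.13. Of the replication genes Rrm2, a subunit of the enzyme that makes deoxynucleotides, rose most (3.23, SE 0.25, adjusted p = 1.93e-08), followed by Tk1, thymidine kinase (2.41). Mcm2, a subunit of the replicative helicase, rose by 1.32. The medians of the lists were 2.38 and 1.45. The 30 mitotic calls held in both fits without either sample of slide 1. Of the replication genes the array fit called 21 without PBS sample 1, when Mcm2 was at 1.19 (adjusted p = 0.114), and 24 without CuO COOH 40 sample 1, while the slide fit called all 26 in each case.

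Mitotic genes are known to be controlled through CCAAT boxes and a cell cycle genes homology region (CHR), and replication genes through E2F sites. The promoters of Ube2c and Uhrf1 are shown because each was the member of its list with the largest change whose window held the motifs looked for. They cover 250 bases before the transcription start (RefSeq, GRCm38.p6), are written 5′ to 3′ and carry in capitals the matches to CCAAT and TTTGAA (Ube2c) or TTTNNCGC (Uhrf1) on either strand. The Ube2c window lies at chr2:164769679-164769928, plus strand, and that of Uhrf1 at chr17:56303087-56303336, plus strand.
Ube2c: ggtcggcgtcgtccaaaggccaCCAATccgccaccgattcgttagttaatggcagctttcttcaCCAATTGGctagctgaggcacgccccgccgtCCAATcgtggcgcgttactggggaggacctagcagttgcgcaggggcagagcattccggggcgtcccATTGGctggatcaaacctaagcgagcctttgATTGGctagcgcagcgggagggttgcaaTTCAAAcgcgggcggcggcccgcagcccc
Uhrf1: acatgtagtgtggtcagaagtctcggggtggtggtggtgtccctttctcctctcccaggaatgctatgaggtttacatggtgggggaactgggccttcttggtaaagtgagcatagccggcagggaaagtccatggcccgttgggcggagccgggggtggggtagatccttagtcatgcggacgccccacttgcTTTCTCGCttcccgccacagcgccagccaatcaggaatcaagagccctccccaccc
The Ube2c window holds 6 matches to CCAAT, of which a pair overlaps by a few bases, and 1 to TTTGAA. The first motif, CCAAT, was found in 21 of 25 mitotic windows (84%) and in 34.5% of all 27025 promoter windows of this length, but also in 71.4% of the windows of clock genes. TTTGAA was in 28% of the mitotic windows and 16.3% of all. The E2F letters TTTNNCGC were in 7 of 22 replication windows (31.8%) and 4.39% of all. Uhrf1, a reader of newly replicated DNA methylation, had log2 intensities of 8.49, 8.39 and 8.45 against 6.47, 6.62 and 6.98 in the controls, and its change was 1.75 (SE 0.19, adjusted p = 1.41e-06). These shares describe letters and were not tested.

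Some metal response genes rose, the metallothioneins among them. Mt2, 1 of the genes for metallothioneins, small proteins that bind copper and zinc, read 14.44, 14.42 and 14.75 in the exposed samples. The controls read 11.19, 11.47 and 12.09, with no overlap, and the log2 fold change was 3.54 (SE 0.32, adjusted p = 9.2e-08), an 11.7-fold difference. Mt1 read 11.39, 11.57 and 11.76 against 9.71, 9.99 and 10.40, again apart, and rose by 1.88 (SE 0.20, adjusted p = 6.08e-07). Slc39a14, a zinc and manganese importer, rose by 2.10, and Hspa1a, an inducible Hsp70 that metals also switch on, by 3.15. In the array fit the call of Hspa1a rested on PBS sample 1 (1.91, adjusted p = 0.633 without it). The slide fit without that sample called Hspa1a at 1.87 (adjusted p = 0.00203). Its near-identical copy Hspa1b was not called. In all 4 of 10 metal response genes rose and 1 fell. The rises numbered 3 and 4 without the slide 1 samples and 5 in the slide fit.

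Metallothionein promoters carry metal response elements, to which MTF1 binds. The 250 bases before the starts of Mt2 (chr8:94172368-94172617, plus strand) and Mt1 (chr8:94178839-94179088, plus strand) are shown from RefSeq (GRCm38.p6). Capitals mark matches to the loose letters TGCNCNC on either strand, which were not tested as MTF1 sites.
Mt2: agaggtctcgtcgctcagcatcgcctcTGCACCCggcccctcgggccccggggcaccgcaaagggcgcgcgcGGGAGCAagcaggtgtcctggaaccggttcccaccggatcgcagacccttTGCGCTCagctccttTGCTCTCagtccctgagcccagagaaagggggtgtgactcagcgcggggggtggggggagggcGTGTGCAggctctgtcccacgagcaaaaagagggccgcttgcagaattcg
Mt1: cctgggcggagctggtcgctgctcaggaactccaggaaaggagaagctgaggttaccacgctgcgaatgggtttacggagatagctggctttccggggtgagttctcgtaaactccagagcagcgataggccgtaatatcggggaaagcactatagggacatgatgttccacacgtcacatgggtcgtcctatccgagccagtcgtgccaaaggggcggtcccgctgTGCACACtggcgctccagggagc
The Mt2 window holds 5 matches and the Mt1 window 1. For each gene only the first start in the reference was used, and bases outside the window were not searched. The counts therefore do not give the number of such elements in either promoter. These letters were found in 43.8% of all promoter windows and in 7 of 9 windows of the metal response list (77.8%), and in 64% of the mitotic windows.

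Copper handling genes did not move together. Of 15 genes 3 rose and 2 fell, with a median of -0.02. Slc31a1, the main copper importer of the cell, was at 0.04 (SE 0.14, adjusted p = 0.93). Steap4 (1.46), a metalloreductase that also responds to inflammation, and Cp (0.73), the copper carrier ceruloplasmin and an acute phase gene, rose. Sod3, the secreted copper-zinc superoxide dismutase, fell by 0.92. The array fit lost calls without PBS sample 1 (Steap4 at 1.71 with adjusted p = 0.133, Cp at 0.95 with adjusted p = 0.106). It also did without CuO COOH 40 sample 1 (Steap4 at 1.35 with adjusted p = 0.0511, Cp at 0.64 with adjusted p = 0.0777, Sod3 at -0.51 with adjusted p = 0.35). The rises then numbered 1 and 0. The slide fit kept the calls of Steap4 (1.14 and 1.08), Cp (0.64 and 0.59) and Sod3 (-0.66 and -0.59) without these samples. It called 2 genes of the list higher and 1 lower.

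Iron handling genes were called higher in 9 of 12 cases, but in 3 and 6 without the slide 1 samples. In the slide fit 7 were higher and 1 lower. Hmox1, the enzyme that breaks down haem to free iron, read 13.09, 12.47 and 12.53 in the exposed samples against 8.04, 10.05 and 10.71 in the controls, and its log2 fold change was 4.91 (SE 0.32, adjusted p = 1.37e-09). The slide fit gave 2.82, and the lowest control, PBS sample 1, was apart from the others. Even so all exposed samples lay above the highest control. Fth1, the heavy chain of the iron store ferritin, rose by 1.59, or 1.34 (adjusted p = 0.0972) without PBS sample 1. Its call was also lost with loess normalisation (adjusted p = 0.2385). Of the 25 NRF2 targets 11 rose, Hmox1 and Fth1 among them, and 2 fell. The slide fit called 6 higher and 2 lower. The array fit called 2 higher and 1 lower without PBS sample 1, and 8 higher and 1 lower without CuO COOH 40 sample 1. Gstm1, a glutathione transferase, fell by 1.79 on the log2 scale (SE 0.24, adjusted p = 1.71e-05). Of other stress lists the array fit called higher 3 of 15 heat shock genes, 1 of 12 genes of endoplasmic reticulum stress and 5 of 16 p53 targets, of which 1 more was lower, with Cdkn1a, the cell cycle inhibitor p21, at 1.24 and Bax, a pro-apoptotic gene, at 0.88. Both calls were lost in the array fit without PBS sample 1 (Cdkn1a at 0.58 with adjusted p = 0.437, Bax at 0.65 with adjusted p = 0.329), when 0 heat shock, 0 endoplasmic reticulum and 0 p53 genes were called higher in limma. In the slide fit these counts were 6, 3 and 3. Among cell death genes Ripk3 (1.56) and Mlkl (0.88), the kinase and the pore of necroptosis, and Pycard (0.90), the inflammasome adaptor, rose, and 5 of 12 genes of the list did in all, with 3 and 2 calls without the slide 1 samples and 3 in the slide fit. Mlkl and Pycard lost their calls without CuO COOH 40 sample 1 (Mlkl at 0.66 with adjusted p = 0.118, Pycard at 0.45 with adjusted p = 0.408), and the slide fit did not call Mlkl (0.52, under the fold limit of 0.58). Nlrp3, the inflammasome sensor, was at -0.13 (adjusted p = 0.839).

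**Figure D2:**
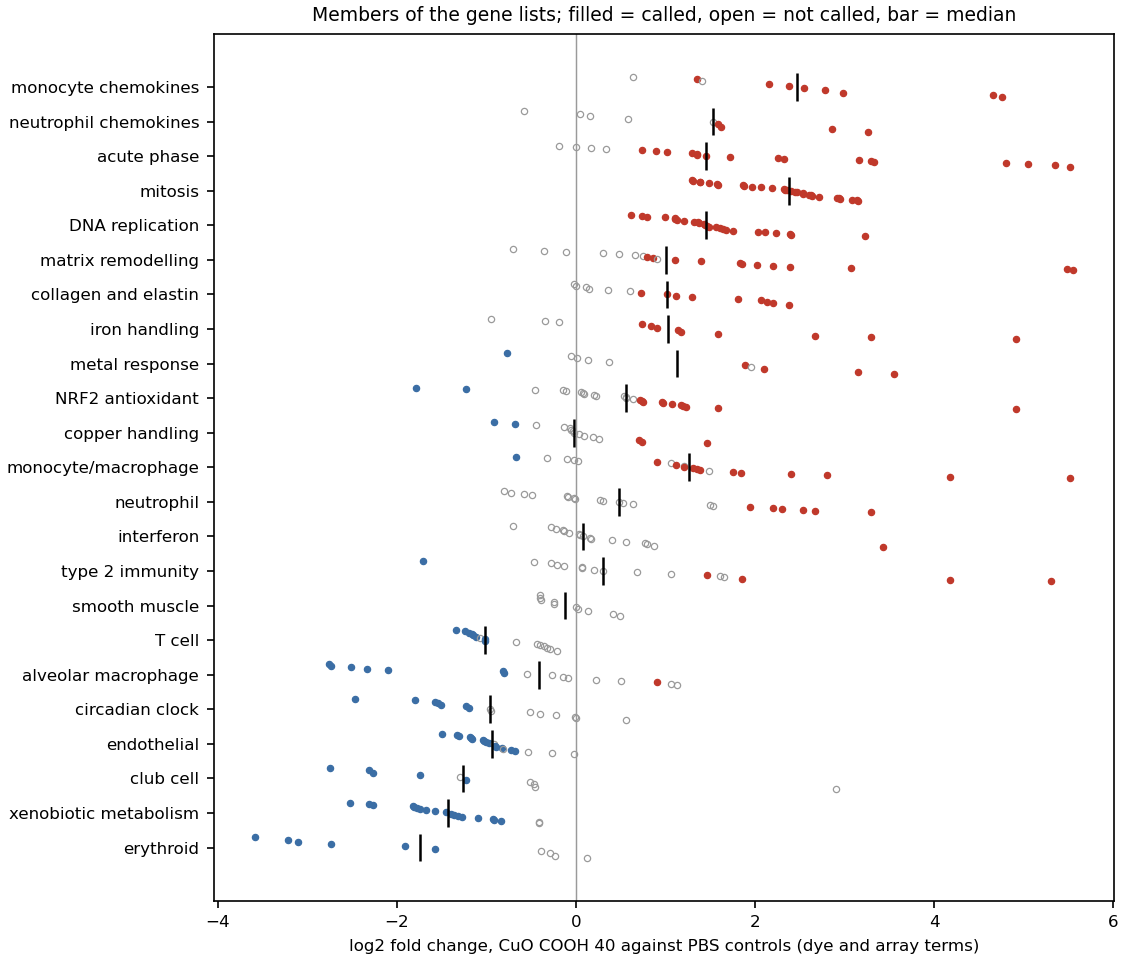
Log2 fold change of CuO COOH 40 against the PBS controls (x axis, dye and array fit) for the measured members of 23 gene lists, 1 row a list, with called genes filled, others open and a bar at each list's median. All 30 mitotic genes are filled and to the right of 0, whereas 18 of 20 xenobiotic metabolism genes and 15 of 20 endothelial genes are filled and to the left.

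Genes for the metabolism of foreign compounds fell almost as a block. Of 20 genes 18 fell and none rose, and the median was -1.43 (-1.18 in the slide fit). The array fit called 14 lower without PBS sample 1 and 11 without CuO COOH 40 sample 1, the slide fit 17 in both cases. Cyp2f2, the cytochrome P450 typical of mouse club cells, read 14.27, 15.18 and 14.42 in the exposed samples and 15.86, 16.42 and 16.66 in the controls. The 3 samples lay below all controls, and the log2 fold change was -2.27 (SE 0.42, adjusted p = 0.000669). Cyp2a5, another P450, fell by 2.53 and Cbr2, a carbonyl reductase of club cells, by 2.31. Cyp1a1, the classical target of the aryl hydrocarbon receptor, fell by 1.78, while its relative Cyp1b1 rose by 1.04. Calls of Cyp2a5 (-2.78, adjusted p = 0.233) and Cyp1a1 (-1.82, adjusted p = 0.0561) were lost without PBS sample 1. Those of Cyp2a5 (-2.41, adjusted p = 0.0739) and Cbr2 (-1.54, adjusted p = 0.0572) were lost without CuO COOH 40 sample 1, and the adjusted p of Cyp1b1 reached 0.281 over the alternatives.

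Club cells are the secretory cells of the airway lining that hold many of these enzymes. Of 10 club cell genes 5 fell, including Cyp2f2 and Cbr2, with 4 and 2 falls without the slide 1 samples and 5 in the slide fit. Scgb3a2, a secretoglobin of club cells, read 13.66, 15.32 and 14.06 in the exposed samples and 15.84, 16.44 and 16.69 in the controls, a change of -2.75 (SE 0.69, adjusted p = 0.00918). No exposed sample reached the lowest control, but sample 2 fell less than the others, and without CuO COOH 40 sample 1 the change was -1.56 (adjusted p = 0.25) and not called, while in the slide fit it was -1.86 and -1.53 without PBS sample 1 and CuO COOH 40 sample 1, called both times. Scgb1a1, the defining secretoglobin of these cells, differed by -0.46 (SE 0.42, adjusted p = 0.603), by -1.90 (adjusted p = 0.158) without PBS sample 1 and by 0.17 (adjusted p = 0.897) without CuO COOH 40 sample 1. Ciliated cell genes were called in 1 of 14 cases lower, Tppp3 (-1.77), a tubulin-binding protein of cilia, and in 1 higher, Foxj1 (1.00), whose sign turned without PBS sample 1 (-0.34, adjusted p = 0.821).

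In the alveoli the surfactant cells (type 2) and the flat cells (type 1) had different calls. Of 10 type 1 genes 6 fell, led by Clic5 (-1.42), a chloride channel protein, and Hopx (-1.08), and Pdpn, podoplanin, rose by 1.37. Ager, a defining type 1 gene, was at -0.34 (adjusted p = 0.489). Of 13 type 2 genes 3 rose, Il33, the collectin Sftpd (1.66) and Chil1 (1.38), and 1 fell. With loess normalisation as an alternative, Sftpd was not called (adjusted p = 0.0525). Sftpc, the surfactant protein that defines type 2 cells, was at -0.49 (SE 0.34, adjusted p = 0.437). It was well above background in all 10 samples. The type 1 genes called lower numbered 1 and 2 in the array fit without PBS sample 1 and CuO COOH 40 sample 1, and 7 and 7 in the slide fit. In the array fit the call of Clic5 rested on PBS sample 1 (-1.51, adjusted p = 0.117 without it). That of Hopx rested on CuO COOH 40 sample 1 (-0.84, adjusted p = 0.0519 without it). The slide fit called both genes when either sample was left out. Chil1 had an adjusted p of up to 0.32 over the alternatives. Goblet cell genes stayed uncalled except for Retnlb, and Muc5ac, the secreted mucin, was at 0.06 (adjusted p = 0.985).

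Endothelial genes fell in 15 of 20 cases and rose in none, with a median of -0.94. Cldn5, the tight junction protein of endothelium, read 13.93, 14.00 and 13.86 in the exposed samples against 14.89, 15.17 and 15.45 in the controls and fell without overlap by 1.49 (SE 0.24, adjusted p = 0.000159). Plvap, which forms the diaphragms of capillary pores, fell by 1.33 and Tmem100, a BMP signalling target of vessels, by 1.30. Both lost their calls without CuO COOH 40 sample 1 (Plvap at -0.88 with adjusted p = 0.138, Tmem100 at -0.88 with adjusted p = 0.203). Pecam1, the general endothelial adhesion molecule, was at -0.53 (adjusted p = 0.394) and was called by the slide fit (-0.74, adjusted p = 0.000331). The array fit called 6 and 4 endothelial genes lower without those samples, and the slide fit 18 and 16. Igfbp3, an insulin-like growth factor binding protein that is on none of the lists, read 10.36, 10.36 and 10.32 against 12.77, 13.14 and 13.60 and fell by 2.77.

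Several erythroid transcripts were lower in the exposed lungs. Hbb-bt, a beta globin gene, read 13.13, 13.22 and 12.69 in the exposed samples and 15.73, 16.01 and 16.65 in the controls, a change of -3.59 (SE 0.51, adjusted p = 3.02e-05). Alas2, the erythroid enzyme of haem synthesis, read 8.70, 8.75 and 8.42 against 11.29, 11.62 and 12.25 and changed by -3.10 (SE 0.47, adjusted p = 8.37e-05). For both genes the groups were more than 2 apart on the log2 scale. Hbb-b1, Hbb-b2 and Hba-a1, further globin genes, fell by 3.21, 3.23 and 2.74, and since globin copies are near-identical their probes may share signal. Of 10 erythrocyte genes 6 fell, 5 without CuO COOH 40 sample 1 and 0 in the array fit without PBS sample 1, the latter with Hbb-bt at -3.02 with adjusted p = 0.0794, Alas2 at -2.77 with adjusted p = 0.0892, Hbb-b1 at -3.65 with adjusted p = 0.0675 and Hba-a1 at -2.33 with adjusted p = 0.149. Hbb-b2, which is not on the list, kept its call there at -3.18 (adjusted p = 0.0316). The slide fit called 6 without either.

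Macrophage markers changed in opposite directions. Of 20 genes of monocytes and recruited macrophages 12 rose and 1 fell. Arg1, the arginase of alternatively activated macrophages, read 10.14, 9.42 and 9.89 in the exposed samples against 6.34, 6.58 and 7.58, without overlap, a change of 4.17 (SE 0.60, adjusted p = 4.18e-05). Msr1, a scavenger receptor, rose by 2.81 and C1qa, a complement component made by macrophages, by 1.11, although without PBS sample 1 C1qa was at 0.52 (adjusted p = 0.761). Ly6c2, a marker of classical blood monocytes, was at 0.02 (adjusted p = 0.981). The array fit called 6 and 9 higher without PBS sample 1 and CuO COOH 40 sample 1, the slide fit 13 in both cases.

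Of 16 genes of resident alveolar macrophages 7 fell and 1 rose. The falls numbered 5 and 4 without the slide 1 samples and 7 in the slide fit. Ear2, an eosinophil-associated ribonuclease gene that alveolar macrophages express, read 10.98, 11.73 and 11.34 in the exposed samples and 13.57, 13.96 and 14.07 in the controls, a change of -2.51 (SE 0.43, adjusted p = 0.000301) with no overlap. Ear1 fell by 2.33 and Ear10 by 2.09. Probes for these close relatives may share signal. Cidec, a lipid droplet protein, fell by 2.76 and Fabp1, a fatty acid binding protein, by 2.73. The call of Fabp1 was lost without PBS sample 1 (-3.55, adjusted p = 0.0858) and without CuO COOH 40 sample 1 (-2.38, adjusted p = 0.0627). Siglecf, the sialic acid receptor shared by alveolar macrophages and eosinophils, fell by 0.82 and lost its call without the former (Siglecf at -0.70 with adjusted p = 0.41), the latter (Siglecf at -0.87 with adjusted p = 0.0504) or CuO COOH 40 sample 3. Of 9 eosinophil genes 3 fell, Siglecf, Ear1 and Ear6, all on the macrophage or ribonuclease lists too, with 1 and 1 falls without the slide 1 samples. Ear6 had an adjusted p of up to 0.308 over the alternatives.

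Lymphocyte genes were lower or not called. Of 16 T cell genes 8 fell, led by Cd3d (-1.34), a chain of the T cell receptor complex, Cd5 (-1.24) and Lef1 (-1.19), but Cd3e, a sister chain of Cd3d, was at -0.43 (adjusted p = 0.309). The array fit called 0 without PBS sample 1, with Cd3d at -0.63 with adjusted p = 0.679, Cd5 at -0.63 with adjusted p = 0.717 and Lef1 at -0.42 with adjusted p = 0.65, and 7 without CuO COOH 40 sample 1. In the slide fit these counts were 6 and 8. A single gene was called lower in each of 3 lists, 10 B cell genes (Cd22, -0.67), 10 NK cell genes (Gzma, granzyme A, -1.19) and 9 mast cell and basophil genes (Cpa3, mast cell carboxypeptidase, -1.14). Their adjusted p reached 0.57, 0.931 and 0.647 over the alternatives. Among 14 dendritic cell genes 4 fell, among them Ccr7 (-1.33), which guides cells to lymph nodes, Clec9a (-1.26) and the MHC class II gene H2-Ab1 (-1.02). All 3 lost their calls without PBS sample 1 (Ccr7 at -1.30 with adjusted p = 0.248, Clec9a at -0.76 with adjusted p = 0.334, H2-Ab1 at -1.33 with adjusted p = 0.174), and H2-Ab1 also without CuO COOH 40 sample 1 (H2-Ab1 at -0.88 with adjusted p = 0.137). The dendritic cell calls numbered 0 and 2 without the slide 1 samples and 6 lower and 2 higher in the slide fit.

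Heart muscle genes, which mark pulmonary vein muscle or attached heart in a lung sample, had a median of -2.07. Myh7 (-1.37), the slow cardiac myosin, was called, though not without PBS sample 1 (Myh7 at -1.91 with adjusted p = 0.0943) or CuO COOH 40 sample 1 (Myh7 at -1.13 with adjusted p = 0.114), and Myh6, the fast one, was not (-2.03, SE 0.82, adjusted p = 0.119). The mean log2 level of the 10 genes ranged over 9.50 to 11.64 in the controls and 9.24 to 9.32 in the exposed samples. In the slide fit 7 of them were called lower. The spread among controls thus covered more than 2 log2 units, and their part in the other results was not tested.

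Some clock genes fell. Of 15 genes 7 fell and none rose, and the median was -0.96 (-0.57 in the slide fit). Dbp, a transcription factor under direct control of the clock, read 12.15, 13.12 and 12.28 in the exposed samples and 14.15, 14.54 and 14.79 in the controls, without overlap, and changed by -2.47 (SE 0.43, adjusted p = 0.000343). Its relatives Hlf and Tef fell by 1.79 and 1.5, and Cry2, a repressor of the clock, by 1.58. Arntl, the activator BMAL1 that drives them, was at 0.56 (adjusted p = 0.123). Without PBS sample 1 and CuO COOH 40 sample 1 the array fit called 4 and 2, with Tef at -1.09 (adjusted p = 0.0584) without the latter, and the slide fit 7 and 6. The adjusted p of Hlf reached 0.306 over the alternatives. The hour of day at which lungs were taken is not given in the sources used here.

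The promoter of Tef (chr15:81802423-81802672, plus strand, RefSeq GRCm38.p6) is shown as the clock gene with the largest change whose 250 bases before the start held the E-box CACGTG, the letters that BMAL1 and CLOCK bind, here in capitals.
Tef: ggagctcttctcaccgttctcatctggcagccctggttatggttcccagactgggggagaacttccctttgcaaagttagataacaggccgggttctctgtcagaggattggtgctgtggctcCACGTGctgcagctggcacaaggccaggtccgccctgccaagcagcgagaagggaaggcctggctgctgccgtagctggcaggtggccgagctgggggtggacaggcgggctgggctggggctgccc
Tef read 10.20, 10.72 and 10.37 in the exposed samples against 11.10, 11.29 and 11.54 in the controls. The E-box was in 5 of 14 windows of the clock list (35.7%) and in 6.05% of all windows.

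Type 2 markers rose in 4 of 17 cases and 1 fell, with 3 and 2 rises without the slide 1 samples and 6 in the slide fit. Retnlb, a resistin-like molecule secreted by goblet cells and epithelium, read 10.57, 9.38 and 10.71 in the exposed samples and 5.43, 5.91 and 6.41 in the controls, 5 of which were well above background. The groups were apart by more than 2 on the log2 scale and the change was 5.31 (SE 0.49, adjusted p = 1.38e-07). Retnla, a related molecule of macrophages and epithelium, rose by 1.85, with an adjusted p of up to 0.279 over the alternatives. The type 2 cytokine genes were not called. Il13 was at -0.21 (adjusted p = 0.558), with none of the exposed samples and 1 of the 7 controls well above background, and Il4 at -0.28 (adjusted p = 0.792). Ccl11, the eosinophil chemokine eotaxin, was at -0.14 (adjusted p = 0.889). Of the prostaglandin and leukotriene genes 4 of 14 rose, with Ptgs1, the cyclooxygenase COX-1, at 1.46, and 3 fell, with Hpgd, which inactivates prostaglandins, at -1.20. The rises of this list numbered 3 and 1 without the slide 1 samples and the falls 0 and 2. Hpgd was not called without PBS sample 1 (Hpgd at -1.21 with adjusted p = 0.34) or CuO COOH 40 sample 1 (Hpgd at -1.20 with adjusted p = 0.0862).

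**Figure D3:**
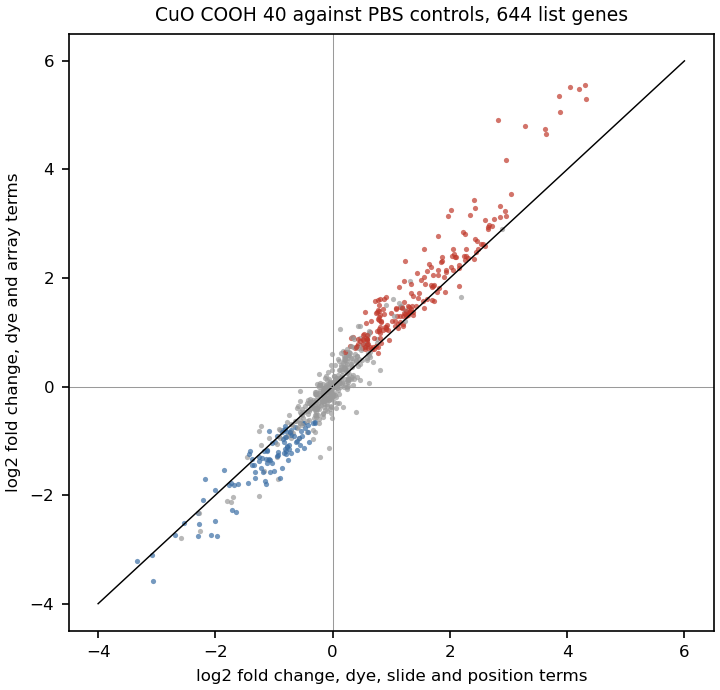
Log2 fold change of CuO COOH 40 against PBS controls for 644 list genes, with dye, slide and array position as terms (x axis) and with dye and array as terms (y axis). The line marks equal values, and the strongest rises lie above it, for example Hmox1 at 2.82 and 4.91.

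More genes were called at higher doses. CuO COOH 2.5 and CuO COOH 10, with 3 PBS-challenged samples each at 2.5 and 10 μg a day, had 82 and 828 genes called against the same 7 controls, where CuO COOH 40 had 2368. Compared directly in a fit with dye, slide and position, 416 genes differed between CuO COOH 40 and CuO COOH 10 (1.82% of 22911), 224 higher (0.978%) and 192 lower (0.838%) at 40. Of the 224 genes 203 were also called higher than in the controls, and of the 192 genes 93 were also called lower. Sample 1 of each of these groups shared an array.

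Retnlb differed most among the named genes that were higher at 40. It read 6.22, 5.71 and 6.29 at 2.5, 8.09, 8.08 and 7.64 at 10 and 10.57, 9.38 and 10.71 at 40. The step from 10 to 40 was 2.29 (95% confidence interval 1.47 to 3.10, adjusted p = 0.000266), and all 3 samples at 40 lay above all at 10. Spp1 read 11.68, 10.79 and 11.49 at 2.5, 13.70, 13.34 and 13.80 at 10 and 14.92, 14.86 and 14.77 at 40, and its step was 1.24 (95% confidence interval 0.55 to 1.92, adjusted p = 0.0192). Arg1 rose from 10 to 40 by 1.64 (95% confidence interval 0.60 to 2.69, adjusted p = 0.046) and Col1a1 by 0.78 (95% confidence interval 0.39 to 1.18, adjusted p = 0.0101). Of 30 mitotic genes 14 were higher at 40 than at 10, and of 26 replication genes 6. Mki67 itself differed by 0.57 (95% confidence interval 0.20 to 0.95, adjusted p = 0.0542) and was not called. At 10 and at 2.5 the mitotic list already had medians of 1.83 and 1.21 against the controls.

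Other rises of the 40 dose were not called as different from 10. Ccl2 read 10.46, 9.25 and 10.60 at 2.5, 11.96, 11.75 and 11.35 at 10 and 12.54, 12.02 and 12.23 at 40, and its step was 0.58 (95% confidence interval -0.36 to 1.52, adjusted p = 0.59). The lowest sample at 40 lay just above the highest at 10. Saa3 read 14.84, 15.12 and 14.99 at 10 against 15.07, 14.98 and 15.39 at 40, a step of 0.17 (95% confidence interval -1.05 to 1.38, adjusted p = 0.945). Of the 21 acute phase genes 1 was called between these doses, the complement component C3, which was lower at 40 by 0.88 and is named after its value was seen. The list's median was 1.53 at 10 against 1.45 at 40 in the array fit. The steps of Mt2 (0.94, 0.33 to 1.56) and Hmox1 (1.09, 0.34 to 1.84), here with their 95% intervals, also missed the threshold, which does not show that the doses acted alike.

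Some epithelial and metabolic genes were lower at 40 than at 10. Scgb3a2 read 16.76, 16.47 and 16.58 at 2.5, 16.66, 16.47 and 16.50 at 10 and 13.66, 15.32 and 14.06 at 40. All samples at 40 were below all at 10, and the step was -2.2 (95% confidence interval -3.04 to -1.36, adjusted p = 0.000589). Cfd, the adipocyte protease complement factor D, differed by -2.42 (95% confidence interval -3.78 to -1.06, adjusted p = 0.0216), and Tff2, a trefoil peptide of mucus, by -1.95 (95% confidence interval -2.98 to -0.92, adjusted p = 0.0143). Cyp2f2 differed by -1.45 (95% confidence interval -2.04 to -0.86, adjusted p = 0.00123) and Hbb-bt by -1.57 (95% confidence interval -2.15 to -0.99, adjusted p = 0.000356). Of the lists 11 of 20 xenobiotic metabolism genes, 6 of 10 club cell genes and 6 of 14 dendritic cell genes were lower at 40. So were 5 of 14 ciliated cell genes, 5 of 20 endothelial genes and 4 of 10 erythrocyte genes. Over all genes the share was 0.838%. With dye and array as terms the comparison of the doses called 29 genes in place of 416. Without CuO COOH 40 sample 1 it called 143 genes, and without CuO COOH 40 sample 2 it called 636.

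**Figure D4:**
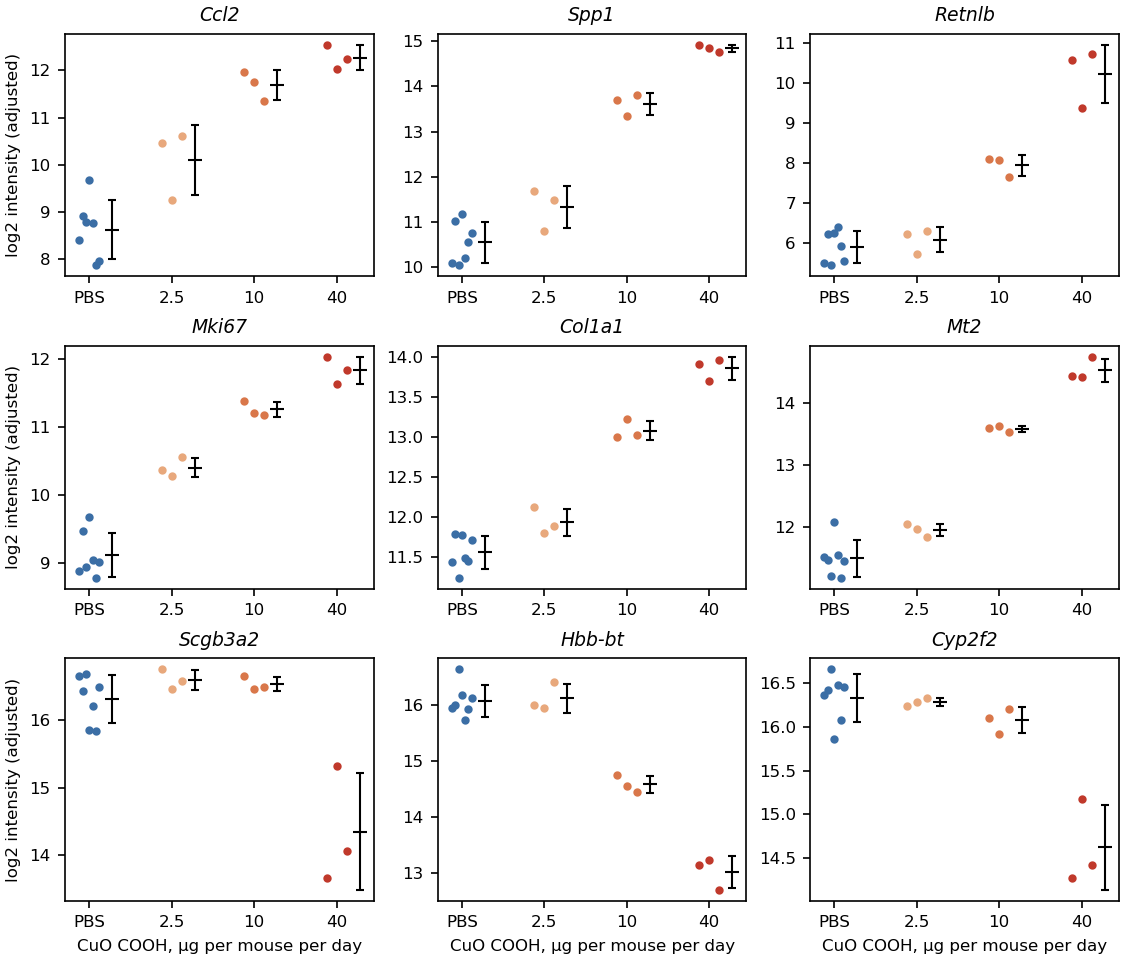
Log2 intensity (mean ± SD, points are samples) of 9 genes in PBS controls (n = 7) and after 2.5, 10 and 40 μg of CuO COOH a day (n = 3 each), with dye, slide and position removed. Ccl2 was already high at 10, while Retnlb rose and Scgb3a2 fell further between 10 and 40.

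Few genes were called as different between CuO COOH 40 and uncoated CuO at the same mass. The comparison with CuO 40 (3 PBS-challenged samples, same dose by mass) called 26 genes (0.113%), 16 higher (0.0698%) and 10 lower (0.0436%) with the carboxyl-coated particle, and 2912 genes had an unadjusted p below 0.05. The 2 materials differ in the carboxyl coating, and their copper doses differ as well, so coating and copper mass cannot be told apart. All 22911 genes were compared in this pair and p-values were adjusted over them.

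Some alveolar macrophage genes were higher with the coated particle. Ear2 read 10.12, 10.03 and 10.12 in the CuO 40 samples and 10.98, 11.73 and 11.34 in the CuO COOH 40 samples, a difference of 1.26 (95% confidence interval 0.72 to 1.80, adjusted p = 0.0196) with all 3 coated samples above all 3 uncoated. Ear1 differed by 1.29 (95% confidence interval 0.76 to 1.81, adjusted p = 0.0175) and Krt79, a keratin gene on the alveolar macrophage list, by 1.41 (95% confidence interval 0.90 to 1.91, adjusted p = 0.00515). Against the controls Ear2 was at -2.51 after CuO COOH 40 and -4.19 after CuO 40, in comparisons that share the controls. Of 16 alveolar macrophage genes 4 were higher with the coated particle, namely Krt79 and the close relatives Ear1, Ear2 and Ear10, whose probes may share signal. Krt79 was not called against the controls (0.50, adjusted p = 0.587 in the array fit). Fabp1 differed by 1.32 (95% confidence interval 0.56 to 2.07, adjusted p = 0.104) and was not called. Lower with the coated particle were Stfa3, a stefin gene whose copies are near-identical (-1.36, 95% confidence interval -1.91 to -0.81, adjusted p = 0.0175), Nnat, neuronatin (-1.0, 95% confidence interval -1.35 to -0.65, adjusted p = 0.00444), and Ccl20 (-0.98, 95% confidence interval -1.46 to -0.51, adjusted p = 0.0446).

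For the genes that rose or fell most against the controls the difference between the materials was not called. It was 0.48 (95% confidence interval -0.17 to 1.13, adjusted p = 0.584) for Spp1, -0.24 (95% confidence interval -1.14 to 0.66, adjusted p = 0.917) for Ccl2 and -0.02 (95% confidence interval -0.38 to 0.34, adjusted p = 0.989) for Mki67. That of Mt2 was -0.08 (-0.67 to 0.51) and that of Hmox1 -0.17 (-0.89 to 0.54), with 95% intervals, so for Mki67 a difference beyond 0.38 either way lies outside the interval, while for Ccl2 a 2-fold lower level lies inside. Saa3 differed by -0.47 (-1.63 to 0.69), Cyp2f2 by 0.22 (-0.35 to 0.78) and Hbb-bt by 0.05 (-0.50 to 0.60). Hspa1a had a lower estimate with the coated particle, -1.66 (95% confidence interval -2.62 to -0.69, adjusted p = 0.11), but was not called. With dye and array as terms limma called none, with 1047 genes at an unadjusted p below 0.05. The number of calls in this comparison ran from 2 without CuO 40 sample 2 to 143 without CuO 40 sample 3.

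The same dose of CuO COOH had a smaller effect on many genes when the mice were challenged with ovalbumin. The groups were CuO COOH 40 with OVA (3 samples) and OVA controls (8 samples), and the difference between the effect under OVA and that under PBS was tested as an interaction. It was called for 261 genes (1.14%), lower under OVA for 250 (1.09%) and higher for 11 (0.048%). Of the 250 genes 240 were called higher than in the controls under PBS. Since the PBS effect is part of the interaction, that count follows in part from the construction.

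Spp1 read 14.81, 15.00 and 14.86 in the OVA-challenged exposed samples against 12.34, 13.16 and 13.81 in the OVA controls. Its effect was 1.78 under OVA and 5.55 under PBS, a difference of -3.77 (95% confidence interval -4.60 to -2.94, adjusted p = 5.59e-05). Timp1 had effects of 0.67 and 5.48, differing by -4.81 (95% confidence interval -6.26 to -3.37, adjusted p = 0.00054), and for Mki67 they were 0.66 and 2.95 (-2.29, 95% confidence interval -2.81 to -1.76, adjusted p = 5.59e-05). Of 30 mitotic genes 24 and of 26 replication genes 15 had a smaller effect under OVA. Mt2 (1.67 under OVA, difference -1.88, -2.65 to -1.10) and Hmox1 (1.58, -3.33, -4.11 to -2.55) were called too. Il33 moved by -0.31 under OVA against 1.72 under PBS, with a difference of -2.03 (95% confidence interval -2.71 to -1.36, adjusted p = 0.00144).

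Fxyd4, a regulator of ion transport, and Slc26a4, the anion exchanger pendrin, had the most negative differences along with Timp1. Fxyd4 was at 3.73 under PBS and -1.15 under OVA (-4.88, 95% confidence interval -6.36 to -3.40, adjusted p = 0.000577), and Slc26a4 at 3.21 and -1.22 (-4.43, 95% confidence interval -5.74 to -3.12, adjusted p = 0.000431). Their OVA controls read 9.31, 10.86 and 11.65 and 12.23, 13.23 and 14.12, and their PBS controls 6.18, 6.77 and 7.27 and 7.72, 8.26 and 9.0. Ccl2, with effects of 2.34 under OVA and 4.66 under PBS, was not called as different (-2.32, 95% confidence interval -3.89 to -0.75, adjusted p = 0.209), nor was Saa3 (-3.17, 95% confidence interval -5.19 to -1.16, adjusted p = 0.157). Ear2 had effects of -2.45 and -2.51 and a difference of 0.06 (95% confidence interval -0.99 to 1.12, adjusted p = 0.994). Without CuO COOH 40 sample 1 the interaction was called for 60 genes, and with dye, slide and position as terms for 537.

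**Figure D5:**
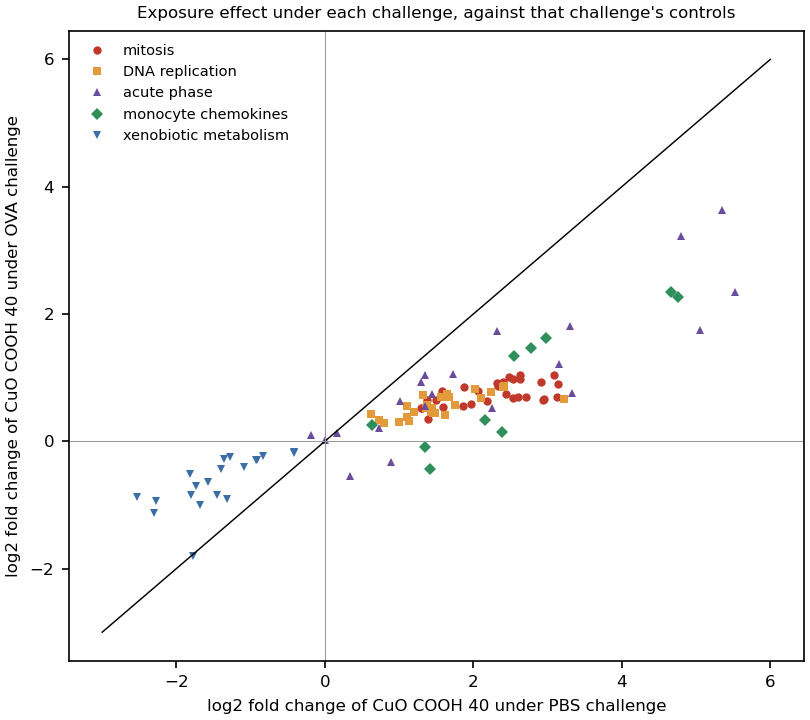
Effect of CuO COOH 40 (log2 fold change) under PBS challenge (x axis) and under OVA challenge (y axis) for the members of 5 lists, mitosis, DNA replication, acute phase, monocyte chemokines and xenobiotic metabolism. The line marks equal effects, and most mitotic genes lie below it, such as Mki67 at 2.95 and 0.66.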

How the data were processed

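Samples were grouped by their labels. The authors hybridised labelled pools to 2-colour Agilent mouse arrays and deposited Feature Extraction scanner intensities with a table of normalised log2 values. Their methods name quantile normalisation and ComBat for dye and array, but which steps the log2 table holds is not given in the sources used here. Here the median foreground intensities of 89 samples on 46 arrays and 6 slides were log2-transformed without background subtraction and quantile-normalised (limma 3.58.1, R 4.3.3). The deposited log2 table served as an alternative. Control spots (3671 of 62976 on an array) were dropped, and spots of a probe and then probes of a gene were averaged. RefSeq named a gene for 32994 of 56605 probes, giving 22911 genes, and 23611 probes had no gene. Models held all 26 groups with dye and array (CuO COOH 40 against PBS, and the interaction) or dye, slide and position (dose and material). Each was tested on simulated data. Named genes were, per list, its defining gene and up to 3 called members with the largest change, and per comparison those with the largest called changes, and some of these genes are not reported here. Members and lists were chosen with earlier results of these data known. Intervals are 95%. Plots used matplotlib 3.10.9 in Python 3.11.15.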

Additional observations from a re-analysis of the deposited data

Results flagged for a closer look

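A sample that stood apart from the rest of its group was looked for in the 147 named genes, and 16 values were found. Chance alone gives about 1 in 20 in such a search, and genes of 1 sample are not independent. PBS sample 1 stood apart for Bax (10.23), Cry2 (12.38), Dcpp2 (8.00), Hmox1 (8.04), Pigt (12.22), S100a8 (12.88) and Scgb2b2 (8.37), all log2 intensities. PBS sample 4 stood apart for Cxcl3 (6.42), Cyp2b10 (12.9), Hopx (14.18), Mcm2 (7.87), Mt2 (12.09) and Saa1 (9.36). PBS sample 3 did so for Colq (11.99), PBS sample 6 for Myh6 (9.67) and OVA control sample 6 for Pigt (11.49).

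The effect of CuO COOH 40 differed between OVA and PBS challenge for the named genes given next by the interaction term of the limma fit. The difference (effect under OVA minus effect under PBS, log2) was negative for genes of cell division, with Ccna2 at -2.24, Birc5 at -2.43, Mki67 at -2.29, Ube2c at -2.04, Rrm2 at -2.55, Tk1 at -1.53 and Uhrf1 at -1.18. Among matrix genes Spp1 was at -3.77, Timp1 at -4.81, Tnc at -1.30 and Lox at -1.14. Of inflammatory and acute phase genes Cxcl5 was at -3.27, Cxcl3 at -2.57, Saa1 at -3.30, Il33 at -2.03 and Bcl3 at -1.19. Macrophage and type 2 genes were Arg1 at -3.06, Msr1 at -1.57, Retnla at -2.84 and Retnlb at -2.73. Metal and stress genes were Mt1 at -0.93, Mt2 at -1.88, Slc39a14 at -1.25, Hmox1 at -3.33 and Ripk3 at -1.02. The others below 0 were Fxyd4 at -4.88, Slc26a4 at -4.43, Ptgs1 at -1.67, F10 at -1.57 and Sftpd at -1.03. The difference was positive for Scgb2b2 at 2.40, Dcpp2 at 1.99 and Pigt at 1.72, for which PBS sample 1 stood apart, and their changes against the PBS controls were -2.60, -1.85 and -1.51 in the array fit and -0.77, -0.52 and 0.02 with slide and position. Dcpp2 was not well above background in the exposed samples, and without PBS sample 1 its change was 0.74 (adjusted p = 0.309) in the array fit and 0.12 with slide and position.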

How the results depend on the processing

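The number of genes called between CuO COOH 40 and PBS controls stayed between 2058 and 2684 under the alternatives other than leaving out a single sample (normexp background, loess, the deposited values, a filter on dim probes, array as a random block, the replicate block, slide and position, fewer controls). Leaving out single samples gave 1021 to 2362 called, 683 to 1388 higher and 338 to 977 lower. Against CuO 40 single samples gave 2 to 143 called, 2 to 36 higher and 0 to 107 lower. Against CuO COOH 10 they gave 143 to 636 called, 89 to 336 higher and 54 to 300 lower. For the interaction they gave 60 to 317 called, 2 to 22 higher and 55 to 295 lower. With dye and array as terms limma called 0 genes against CuO 40, 0 higher and 0 lower (1047 with an unadjusted p below 0.05), and 29 against CuO COOH 10, 19 higher and 10 lower. Array as a random block called 11 genes against CuO 40, 8 higher and 3 lower, and 526 for the interaction, 82 higher and 444 lower. The filter on dim probes called 16 genes lower against CuO 40. Slide and position called 537 genes for the interaction, 94 higher and 443 lower, and loess called 23 higher. The causes were not tested.

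The groups share replicate numbers, but same-numbered samples deviated with correlations of -0.08 to 0.33, so the numbers were not taken as pairs, although each of the 3 exposed samples correlated best with the control of its number. The replicate block called 2058 genes against the controls in place of 2368, 15 against CuO 40 with 4 lower, and 501 for the interaction, 82 higher and 419 lower.

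Of the named genes' values 3205 kept direction and side of the threshold, 291 lost and 43 gained a call, and 13 turned in sign. Pigt turned against the controls to 0.11 with array as a random block, 0.10 with the replicate block, 0.020 with slide and position (0.53 and 0.062 without PBS sample 1 and CuO COOH 40 sample 1), and 0.22 with the 10 samples alone. Its interaction turned to -0.41, -0.48 and -0.18 in the first 3 of these. Dcpp2 turned to 0.12 with slide and position without PBS sample 1 and to 0.74 in the array fit without it, where single omissions gave -2.99 to 0.74. Its interaction turned to -0.43 there (-0.43 to 3.29), and Foxj1 to -0.34 (-0.34 to 1.59). Alternatives that left out PBS samples 5 and 7 together (2295 called) or joined slide and position with a left-out sample were chosen after seeing the data. Of 120 named called genes the array fit lost 54 without PBS sample 1 and 38 without CuO COOH 40 sample 1, and the slide fit lost 12 and 10. With 3 exposed pools and 1 time point precision is limited, and genes near background, such as Cxcl3 and Il13, have weak measurements.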

Other observations

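Genes of surfactant and lipid synthesis were called higher in 5 of 18 cases and lower in none. Besides the collectin Sftpd they included Fabp5 (1.32), a fatty acid binding protein, and the cholesterol synthesis genes Sqle (1.21) and Hmgcs1 (0.87), named after their values were seen. The slide fit called 6 of the list, and the array fit 2 without PBS sample 1 and 1 without CuO COOH 40 sample 1. Sftpc was at -0.49 and not called. Of 8 lymphatic and mesothelial genes 2 were higher (3 and 1 without PBS sample 1 and without CuO COOH 40 sample 1), Pdpn and Msln (1.42), the mesothelial surface protein mesothelin. Colq, the collagen tail of acetylcholinesterase, was on none of the lists and read 8.44, 9.20 and 8.55 in the exposed samples against 11.26, 11.46 and 11.99 in the controls, a change of -2.94 (SE 0.35, adjusted p = 4.52e-06).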
